A study of Homo sapiens with 6 samples.

Results

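The bone morphogenetic protein (BMP) family is described here by 10 genes, namely the ligands BMP2, BMP4, BMP6 and BMP7, the receptors BMPR1A, BMPR1B and BMPR2, the secreted antagonists GREM1 and NOG, and the inhibitory SMAD gene SMAD6. They were read by symbol from a table of 23345 genes, where all 10 were found. The genes were picked with the changes of this same comparison already known, so their values are given as a description with no p-value, and where they are set against the test's threshold this too is only a description. RNA sequencing was done on 3 libraries of A375 cells given a lentivirus for murine BMI1, a RING finger protein of the chromatin-silencing Polycomb complex PRC1, and on 3 libraries of A375 cells given a lentivirus for GFP, the control. A375 is an established human melanoma line with an activating BRAF mutation, and all 6 libraries share that background and a lentiviral infection. Whether the transduced cells were a pool or a clone, and the promoter that drove each transgene, are details that the labels leave out. The labels do not say that replicates came from separate cultures, so spreads and p-values cover only the differences between these libraries, which may be technical.

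BMP ligands are secreted dimers that bring together type I and type II serine/threonine kinase receptors. The activated type I receptor phosphorylates SMAD1, SMAD5 and SMAD9, which join SMAD4 and enter the nucleus to act on target genes such as those of the ID family. Secreted antagonists such as noggin and gremlin bind the ligands outside the cell, and SMAD6 blocks the pathway inside it and is itself a target gene. BMPs are best known for patterning the embryo and bone, and they act on the neural crest, from which melanocytes come.

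Total estimated counts were 20221432 to 24557089 in the BMI1 libraries and 20692385 to 30388937 in the GFP libraries. Values are given as counts scaled to a common library size (CPM) with TMM factors. The BMI1 row stood at 518, 522 and 506 CPM in BMI1 libraries and at 81.5, 92.7 and 94.0 CPM in GFP libraries, and it holds human transcripts together with whatever reads of the murine transgene were assigned to it. GFP replicate 1 lay apart on the second principal component, which held 12.2% of the variance, at 26.0 with all other libraries between -12.4 and 4.31. Of 8 melanocyte and melanoma markers, SOX10, MITF and S100B were present in both groups, while PMEL, MLANA, TYR, DCT and TYRP1 stayed under 1 CPM in each library. Summed levels of the 7 fibroblast markers were 52.1 to 56.9 CPM in BMI1 libraries and 32.0 to 36.5 CPM in GFP libraries. Of 6 tested, COL1A1, COL1A2, LUM and PDGFRA passed as higher in BMI1 cells, by 2.68-, 2.19-, 1.73- and 2.16-fold, and 0 as lower. Over all tested genes 17.1% passed as higher and 9.32% as lower. The fibroblast marker COL3A1 was at 0.09 CPM in BMI1 and 0.11 CPM in GFP libraries. Whether the fibroblast markers bear on the values below was not tested. Summed levels of the other marker lists were 46.1 to 50.3 CPM in BMI1 and 42.8 to 48.9 CPM in GFP libraries for 5 leukocyte markers, 68.6 to 70.6 CPM in BMI1 and 57.1 to 70.0 CPM in GFP libraries for 6 keratinocyte and epithelial markers, and 6.69 to 7.37 CPM in BMI1 and 8.48 to 9.35 CPM in GFP libraries for 4 endothelial markers. Tested were 2 leukocyte, 3 keratinocyte and epithelial and 3 endothelial markers. KRT14, CD68 and VWF passed as higher and LYZ and KDR as lower, beside the same shares over all tested genes.

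Upstream sequences are shown for the 2 type I receptors among the 10 genes, whose log2 fold changes differ in sign, though that of BMPR1A did not pass. Those of SMAD6, a feedback gene of the pathway, and of the ligand BMP6 are shown too, and all were chosen after the values were seen. They are the 250 bases before the start listed first for each gene, from RefSeq on GRCh38.p14. Any other start of a gene was not looked at. There 7 of the 10 genes were matched, and BMP2, BMP7 and NOG were not. Capitals mark matches on either strand to GGCGCC or GCCGNC, GC-rich motifs that SMAD complexes of the BMP branch are known to bind, with overlapping matches joined. The BMPR1B stretch is chr4:94757705-94757954, that of BMPR1A chr10:86755513-86755762, that of SMAD6 chr15:66701986-66702235 and that of BMP6 chr6:7725849-7726098, each on the plus strand.
BMPR1B: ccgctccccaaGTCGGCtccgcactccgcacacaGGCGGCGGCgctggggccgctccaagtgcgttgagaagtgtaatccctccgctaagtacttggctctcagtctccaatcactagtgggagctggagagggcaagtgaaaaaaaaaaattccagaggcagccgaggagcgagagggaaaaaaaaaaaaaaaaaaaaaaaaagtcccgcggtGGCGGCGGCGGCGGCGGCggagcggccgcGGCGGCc
BMPR1A: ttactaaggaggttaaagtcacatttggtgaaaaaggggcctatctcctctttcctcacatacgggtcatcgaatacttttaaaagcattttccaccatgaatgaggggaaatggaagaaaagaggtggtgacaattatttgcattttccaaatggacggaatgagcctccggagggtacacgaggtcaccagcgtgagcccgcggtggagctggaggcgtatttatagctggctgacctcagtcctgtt
SMAD6: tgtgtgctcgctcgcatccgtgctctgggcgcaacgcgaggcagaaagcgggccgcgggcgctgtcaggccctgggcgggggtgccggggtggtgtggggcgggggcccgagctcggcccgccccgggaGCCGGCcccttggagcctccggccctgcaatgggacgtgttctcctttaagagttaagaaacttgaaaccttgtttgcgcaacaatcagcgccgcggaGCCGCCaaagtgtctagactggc
BMP6: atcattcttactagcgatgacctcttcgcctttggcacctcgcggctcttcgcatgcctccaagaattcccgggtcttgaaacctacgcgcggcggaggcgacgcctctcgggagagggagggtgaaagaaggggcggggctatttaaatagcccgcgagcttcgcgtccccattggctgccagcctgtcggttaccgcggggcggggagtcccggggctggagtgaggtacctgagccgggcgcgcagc

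The type I receptor genes shown differ in base composition before the starts used, and other starts could differ. The BMPR1B stretch was 60.0% G and C with 24 CpG dinucleotides and 9 matches to GCCGNC, some of them overlapping within GGC repeats. The BMPR1A stretch was 47.2% G and C with 9 CpG, no match to either motif and 1 match to TATAAA. SMAD6 had 68.0% G and C, 25 CpG and 2 matches to GCCGNC, and BMP6 had 64.4%, 26 CpG and no match. Of the matched genes not shown, BMPR2 had 9 matches to GCCGNC and 1 to GGCGCC, GREM1 had 8 and 2, and BMP4 had 0 and 1. Among 27305 promoters of the same length the median was 58.0% G and C and 11 CpG, GCCGNC was found in 40.4%, GGCGCC in 16.1% and TATAAA in 11.1%. A match is a string of letters and was not tested as a binding site.

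Of the family, 8 of the 10 genes passed the filter on low counts, each with counts in all 6 libraries. At an adjusted p of 0.05 in edgeR's quasi-likelihood test, corrected over all tested genes, BMP2, BMP6, BMP7, BMPR1B and SMAD6 passed as higher and 0 of 8 as lower. Beside these counts, 26.4% of 15079 tested genes passed, 17.1% as higher and 9.32% as lower, and the groups did not overlap in 40.1% of them. The median log2 fold change was 0.61 over the 8 genes and -0.01 over all tested genes. Since the genes were chosen with this comparison known, nothing is read from that difference.

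BMP7, a ligand that acts in kidney and bone development, was the family member with the largest difference. It stood at 41.4, 44.7 and 44.7 CPM in BMI1 libraries and at 5.32, 6.08 and 6.60 CPM in GFP libraries. The groups lie far apart, with the lowest BMI1 library above the highest GFP library and a spread within each group that is small beside the gap. The fitted fold was 7.19, a log2 fold change of 2.85 (SE 0.08), and 102 of 15079 tested genes, or 0.676%, had a larger fitted rise. In such bulk RNA, a change in the share of cells that express a gene and a change in RNA per cell cannot be told apart. An antisense gene, BMP7-AS1, overlaps BMP7 in GENCODE and has no row of its own in the table. The labels give no strand setting for the counting, so reads of BMP7-AS1 cannot be told apart from those of BMP7.

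BMP2 and BMP6, ligands of separate branches of the family, were also higher in BMI1 cells, by less than BMP7. BMP2 stood at 13.2, 13.9 and 12.0 CPM in BMI1 libraries and at 6.90, 8.74 and 7.03 CPM in GFP libraries (log2 fold change 0.78, SE 0.11). BMP6, known in the liver as the ligand that sets hepcidin, stood at 12.3, 11.9 and 12.4 CPM in BMI1 libraries and at 7.33, 8.43 and 7.39 CPM in GFP libraries (log2 fold change 0.66, SE 0.09). For neither gene did the groups overlap, and for both GFP replicate 2 was the highest GFP library. BMP4, the closest relative of BMP2, stood at 2.10, 1.79 and 2.40 CPM in BMI1 libraries and at 1.82, 1.67 and 1.79 CPM in GFP libraries. Its groups overlapped, because BMI1 replicate 2 lay below GFP replicates 1 and 3, and the log2 fold change of 0.26 (SE 0.18) did not pass.

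**Figure D1:**
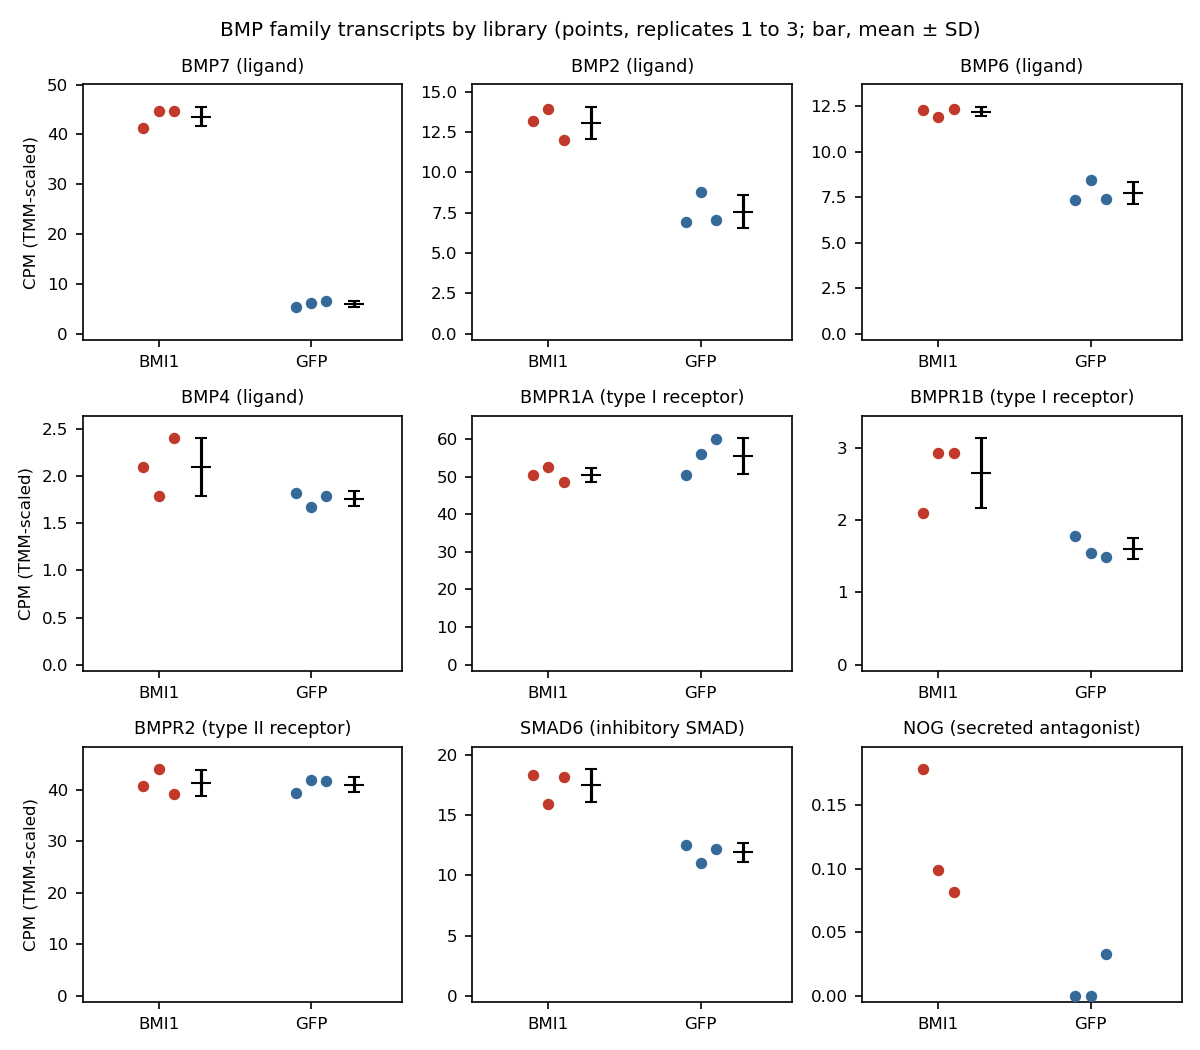
Transcript level in CPM (vertical axes, each from 0) of 9 BMP family genes in the 3 BMI1 libraries, in red, and the 3 GFP libraries, in blue, with the mean ± SD beside them except for NOG. BMP7, BMP2, BMP6, BMPR1B and SMAD6 show no overlap between the groups, while BMP4, BMPR1A and BMPR2 overlap; NOG rests on 8 counts in BMI1 and 1 in GFP libraries, and GREM1, not drawn, had 0 in each.

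The ligand make-up differed accordingly. To compare levels between genes, CPM was divided by the length in kilobases of the longest protein-coding transcript of each gene in GENCODE, which may not be the isoform these cells use. The 4 ligands summed to 19.5, 20.2 and 20.2 CPM per kb in BMI1 libraries and to 6.83, 7.85 and 7.19 CPM per kb in GFP libraries. BMP7 made up 52.9%, 55.1% and 55.2% of that sum in BMI1 libraries and 19.4%, 19.3% and 22.9% in GFP libraries. BMP6, the most abundant of the 4 in GFP libraries, held 22.0% ± 0.77 in BMI1 and 38.1% ± 0.94 in GFP libraries (SD, n = 3 each). BMP2 held 18.2% ± 1.44 in BMI1 and 28.7% ± 1.98 in GFP libraries, and BMP4 held 5.48% ± 0.81 in BMI1 and 12.7% ± 1.43 in GFP libraries. The smaller shares of BMP2 and BMP6 in BMI1 libraries stand beside higher levels of both transcripts. With the median transcript length in place of the longest, BMP7 held 71.8% ± 1.08 in BMI1 and 35.2% ± 2.74 in GFP libraries. BMP7 was then also the leading one of the 4 in the GFP group, so which of the 4 leads there depends on the length used. The ligand BMP8B is not among the 4, and its level per kb was not computed. In CPM it stood at 23.9 in BMI1 and 31.9 in GFP libraries, where BMP6 stood at 7.72.

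**Figure D2:**
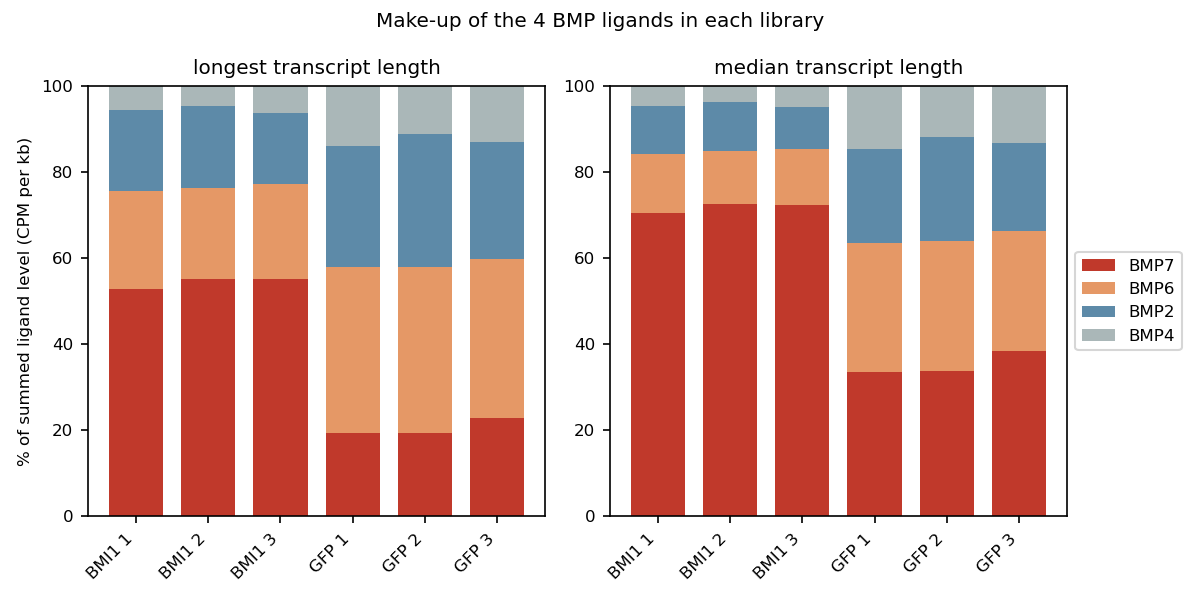
Share of each ligand, in percent of the summed level in CPM per kb, for each library (BMI1 1 to 3, then GFP 1 to 3), with the longest transcript length on the left and the median on the right. BMP7, in red, takes 52.9% to 55.2% of the BMI1 bars and 19.3% to 22.9% of the GFP bars with the longest length.

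The receptor transcripts differed little between the groups, apart from BMPR1B. BMPR1A, the widely expressed type I receptor, stood at 50.5, 52.4 and 48.7 CPM in BMI1 libraries and at 50.4, 56.0 and 59.9 CPM in GFP libraries. GFP replicate 1 lay within the range of the BMI1 libraries while GFP replicates 2 and 3 lay above all of them. The log2 fold change was -0.14 (SE 0.07) and did not pass, and without GFP replicate 1 it was -0.20 (SE 0.06) and passed. BMPR1B, the type I receptor known from cartilage and the ovary, stood at 2.10, 2.93 and 2.93 CPM in BMI1 libraries and at 1.77, 1.55 and 1.49 CPM in GFP libraries (log2 fold change 0.73, SE 0.19). Its groups did not overlap, but the nearest libraries of each group differed by less than BMI1 replicates 1 and 2 did. It rests on 178 counts over the BMI1 and 121 over the GFP libraries, and the call was lost on leaving out any of GFP replicates 2 and 3 and BMI1 replicates 2 and 3, at log2 fold changes of 0.71, 0.68, 0.66 and 0.65. BMPR2, the type II receptor mutated in heritable pulmonary arterial hypertension, stood at 40.7, 44.0 and 39.2 CPM in BMI1 libraries and at 39.4, 42.0 and 41.8 CPM in GFP libraries. Its groups overlapped, with a log2 fold change of 0.01 (SE 0.06).

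Per kb the 3 receptors summed to 8.57 ± 0.40 CPM in BMI1 and 8.80 ± 0.51 CPM in GFP libraries (SD, n = 3 each). Receptor transcripts per ligand transcript were 0.431, 0.446 and 0.410 in BMI1 libraries and 1.21, 1.14 and 1.28 in GFP libraries, so the 4 ligands together exceeded the 3 receptors in the BMI1 libraries alone, and each BMI1 value lay below each GFP value. With the median length this ratio was 0.428 ± 0.02 in BMI1 and 1.55 ± 0.07 in GFP libraries. These sums leave out other ligands and receptors of the pathway. The ligand BMP8B stood at 23.9 CPM in BMI1 and 31.9 CPM in GFP libraries. The receptors ACVR1, ACVR2A and ACVR2B stood at 23.0, 7.94 and 24.2 CPM in BMI1 and 19.4, 8.71 and 28.5 CPM in GFP libraries. A ratio that holds these genes was not computed. Of the sum of the 3 receptors, BMPR1A made up 52.4% ± 0.86 in BMI1 and 55.9% ± 1.63 in GFP libraries. BMPR1B made up 5.56% ± 0.97 in BMI1 and 3.30% ± 0.51 in GFP libraries. BMPR1B was thus scarcer than BMPR1A in both groups.

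The secreted antagonists among the 10 genes were close to absent. NOG, the gene of the ligand trap noggin, had 4, 2 and 2 counts in BMI1 libraries and 0, 0 and 1 in GFP libraries. The ratio of summed levels was 9.08, with a 95% exact interval of 1.22 to 403 that covers counting error only. GREM1, the gene of the BMP2 and BMP4 antagonist gremlin, had 0 counts in all 6 libraries. A count of 0 allows up to 3 counts per library, or 0.122 to 0.149 CPM in BMI1 and 0.0994 to 0.144 CPM in GFP libraries. Neither gene passed the filter on low counts. With no such filter NOG was fitted at a log2 fold change of 2.76 (SE 1.17) and did not pass.

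SMAD6, which binds activated type I receptors and competes with SMAD4, was higher in BMI1 cells. It stood at 18.3, 15.9 and 18.2 CPM in BMI1 libraries and at 12.5, 11.1 and 12.2 CPM in GFP libraries (log2 fold change 0.56, SE 0.08). BMI1 replicate 2 was the lowest of its group and still lay above each GFP library.

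Per kb of the longest transcript the order in BMI1 libraries was BMP7, at 10.9 ± 0.48 CPM, then SMAD6, BMPR1A and BMP6, at 4.56 ± 0.35, 4.49 ± 0.17 and 4.39 ± 0.09, whose libraries overlap. BMP2 and BMPR2 followed at 3.62 ± 0.28 and 3.60 ± 0.22 and overlap too, then BMP4 at 1.09 ± 0.16, BMPR1B at 0.48 ± 0.09 and NOG. In GFP libraries the order was BMPR1A, at 4.93 ± 0.42 CPM per kb, BMPR2 at 3.58 ± 0.13, SMAD6 at 3.11 ± 0.20, BMP6 at 2.78 ± 0.22, BMP2 at 2.10 ± 0.29, BMP7 at 1.50 ± 0.16, BMP4 at 0.92 ± 0.04 and BMPR1B at 0.29 ± 0.03. Among the GFP neighbours, SMAD6 and BMP6 overlap between libraries and the others do not. BMP7 thus had rank 1 of 10 in the BMI1 and rank 6 in the GFP libraries. With the median length it had rank 1 in the BMI1 and rank 4 in the GFP libraries.

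Transcript G and C content was 52.1% to 58.8% in BMP2, BMP6, BMP7 and SMAD6, 54.0% in BMP4 and 37.6% to 40.6% in the 3 receptors. After correction of each library for G and C content the log2 fold changes of BMP7, BMP2, BMP6, BMPR1B and SMAD6 were 2.79, 0.76, 0.62, 0.83 and 0.48, and the same 5 genes passed.

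**Figure D3:**
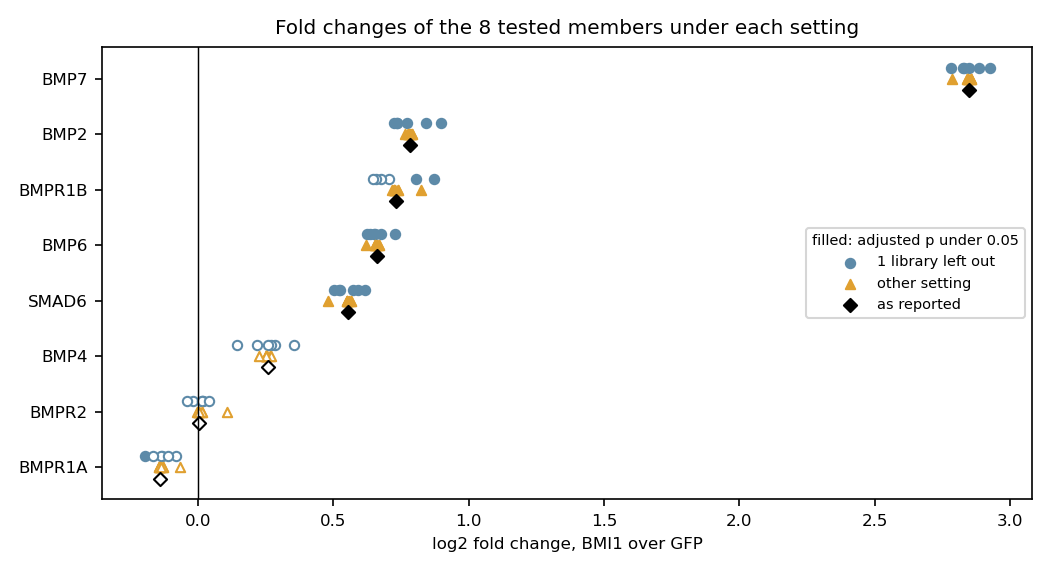
Log2 fold change of BMI1 over GFP (horizontal axis) for the 8 tested BMP family genes under the reported setting, in black, with 1 library left out, in blue, and under other settings, in orange; filled symbols passed an adjusted p of 0.05. BMP7, BMP2, BMP6 and SMAD6 stay filled throughout, BMPR1B has 4 open symbols, and BMPR1A is filled once, without GFP replicate 1.

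The wider pathway was described with 72 other genes in 6 lists. Of 50 tested, 23 rose, 5 fell and 22 did not pass, beside 17.1% higher and 9.32% lower over all tested genes. Their median log2 fold change was 0.28, beside -0.01 over all tested genes. The lists were chosen with earlier results of these data known, so nothing is read from these differences. Counts and p-values given below for listed genes are likewise only a description. Without GFP replicate 1, 27 rose and 8 fell, the 23 and 5 among them, and the shares over all tested genes were then 20.9% higher and 16% lower. Without GFP replicate 3, 22 rose and 3 fell, beside 14.6% higher and 5.83% lower over all tested genes.

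Among other ligands, 2 of 11 genes were tested. BMP8B, a ligand related to BMP7, fell to 23.8, 23.9 and 23.9 CPM in BMI1 libraries, against 33.8, 29.5 and 32.4 CPM in GFP libraries (log2 fold change -0.42, SE 0.06, edgeR adjusted p = 0.000335). Its near-identical neighbour BMP8A stood at 3.61 ± 0.46 CPM in BMI1 and 3.86 ± 0.32 CPM in GFP libraries (SD, n = 3 each; edgeR adjusted p = 0.688). Reads shared by this pair could be split between them by the counting, so both values are uncertain. The fall of BMP8B runs opposite in direction to BMP2, BMP6 and BMP7.

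Of 9 other receptors and co-receptors tested, 3 rose and 2 fell, beside 17.1% higher and 9.32% lower over all tested genes. Under the alternative settings 2 to 4 were higher and 1 to 2 lower. NEO1, the gene of neogenin, a receptor that binds netrins and the RGM co-receptors of BMPs, fell to 14.0, 13.6 and 14.3 CPM in BMI1 libraries, against 25.4, 23.4 and 26.5 CPM in GFP libraries (log2 fold change -0.85, SE 0.07, edgeR adjusted p = 1.58e-06). BAMBI, a decoy receptor without a kinase domain and itself a BMP and TGF-beta target, rose to 71.6, 69.4 and 73.9 CPM in BMI1 libraries, against 52.9, 49.1 and 50.3 CPM in GFP libraries (log2 fold change 0.50, edgeR adjusted p = 3.88e-05). Neither gene's groups overlapped. ACVR1, the type I receptor that BMP6 and BMP7 prefer, rose by 0.24 on the log2 scale (SE 0.06, edgeR adjusted p = 0.00899). RGMA, a co-receptor named here after its value was seen, had 0.52 as its log2 fold change (SE 0.15, edgeR adjusted p = 0.0250). The type II receptor ACVR2B had -0.24 as its log2 fold change (SE 0.06, edgeR adjusted p = 0.0131), and its call was lost without GFP replicate 2 or 3 (edgeR adjusted p = 0.0529 and 0.0690, with the other alternatives below 0.05). ENG, the co-receptor endoglin, stood at 124 ± 5.77 CPM in BMI1 and 108 ± 10.9 CPM in GFP libraries (SD, n = 3 each) and did not pass (edgeR adjusted p = 0.0545). ENG passed under 5 of 14 alternative settings, among them the one without GFP replicate 1, its highest GFP library, with a log2 fold change of 0.29. RGMB, another co-receptor, had a log2 fold change of -0.06 and did not pass.

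Among other antagonists and modulators, 5 of 10 tested genes rose and 5 did not pass. Over all tested genes 17.1% were higher and 9.32% lower. Without GFP replicate 1 the numbers for this list were 5 higher and 2 lower, beside 20.9% and 16% over all tested genes. FSTL1, a secreted follistatin-like glycoprotein that can bind BMPs, rose to 69.5, 70.0 and 66.5 CPM in BMI1 libraries, against 22.7, 22.4 and 23.6 CPM in GFP libraries (log2 fold change 1.58, SE 0.06, edgeR adjusted p = 1.42e-09). FST and FSTL3, antagonists of activins above all, had log2 fold changes of 1.11 and 0.87. NBL1, a DAN family antagonist, rose to 26.7, 27.6 and 38.0 CPM in BMI1 libraries, against 18.4, 16.5 and 19.1 CPM in GFP libraries (log2 fold change 0.78, SE 0.12, edgeR adjusted p = 0.000374), with BMI1 replicate 3 well above the other BMI1 libraries. CHRD, the gene of the classical ligand trap chordin and named here after its value was seen, passed with 40 counts over the BMI1 and 5 over the GFP libraries. Of the genes that did not pass, the 2 most abundant were CRIM1 and CHRDL1. CRIM1 stood at 119 ± 3.98 CPM in BMI1 and 113 ± 3.36 CPM in GFP libraries, and CHRDL1, a chordin-like protein that binds BMP4, at 84.7 ± 1.48 CPM in BMI1 and 91.8 ± 4.12 CPM in GFP libraries (SD, n = 3 each). CHRDL1 passed without GFP replicate 1, with a log2 fold change of -0.14, and CRIM1 after GC correction, with 0.09.

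Enzymes that process the ligands and their antagonists had 4 rises among 6 tested genes, and 2 did not pass. Over all tested genes 17.1% were higher. PCSK6, a proprotein convertase that cleaves TGF-beta family precursors, rose to 17.8, 16.5 and 15.6 CPM in BMI1 libraries, against 2.92, 2.54 and 2.42 CPM in GFP libraries (log2 fold change 2.67, SE 0.11, edgeR adjusted p = 3.90e-09). Its relative PCSK5 rose to 8.74, 8.33 and 8.18 CPM in BMI1 libraries, against 2.92, 3.46 and 3.15 CPM in GFP libraries (log2 fold change 1.40). BMP1, which despite its name is a tolloid protease that cleaves procollagen and chordin, rose by 0.41 on the log2 scale (SE 0.08, edgeR adjusted p = 0.00222), and its relative TLL2 by 1.24 (SE 0.17, edgeR adjusted p = 0.000179). FURIN, the common convertase of BMP precursors, stood at 137 ± 9.08 CPM in BMI1 and 125 ± 8.53 CPM in GFP libraries (SD, n = 3 each) and did not pass, nor did PCSK7. Without GFP replicate 1 both passed, with log2 fold changes of 0.19 and 0.20, so that 6 of 6 were then higher, in a setting where 20.9% of all tested genes were.

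Transducers and intracellular inhibitors lay near the shares over all tested genes, 17.1% higher and 9.32% lower. Of 12 tested, 2 rose, 1 fell and 9 did not pass. After GC correction 5 were higher, and leaving out 1 library gave 0 to 3 lower, with 0 without GFP replicate 3 or BMI1 replicate 1 or 3, 2 without GFP replicate 1 and 3 without BMI1 replicate 2. With DESeq2 size factors 2 were lower. SMAD9, a receptor-activated SMAD of the BMP branch, rose to 7.54, 7.24 and 7.04 CPM in BMI1 libraries, against 2.59, 2.58 and 2.65 CPM in GFP libraries (log2 fold change 1.48, SE 0.12, edgeR adjusted p = 1.51e-06). SMAD5 stood at 115 ± 5.06 CPM in BMI1 and 115 ± 11.4 CPM in GFP libraries (SD, n = 3 each; log2 fold change -0.01, edgeR adjusted p = 0.940). SMAD7, the other inhibitory SMAD and like SMAD6 a feedback target, rose to 15.0, 13.8 and 15.8 CPM in BMI1 libraries, against 8.67, 9.70 and 10.2 CPM in GFP libraries (log2 fold change 0.63, SE 0.09, edgeR adjusted p = 0.000171). SMAD4, the partner shared with TGF-beta signalling, had -0.25 as its log2 fold change (SE 0.07, edgeR adjusted p = 0.0159), and its call was lost on leaving out any of GFP replicate 3 and BMI1 replicates 1 and 3 (edgeR adjusted p = 0.0627, 0.0609 and 0.0736, with the other alternatives below 0.05). The corepressor SKI had a log2 fold change of 0.11 and did not pass, except without GFP replicate 1, where it had 0.14.

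Of 11 tested target genes of BMP-activated SMADs, 9 rose, 1 fell and 1 did not pass, beside the 17.1% higher and 9.32% lower over all tested genes. As this list too was chosen with earlier results known, nothing is read from its count. ID1 and ID3, inhibitors of helix-loop-helix factors, had log2 fold changes of 1.41 (SE 0.06, edgeR adjusted p = 7.40e-09) and 1.38 (SE 0.07, edgeR adjusted p = 3.28e-08). ID4 of the same family, named here after its value was seen, was the exception and fell by 1.17 on the log2 scale (edgeR adjusted p = 5.01e-05). The homeobox gene DLX2 rose to 25.8, 22.7 and 24.4 CPM in BMI1 libraries, against 12.6, 12.6 and 13.3 CPM in GFP libraries (log2 fold change 0.92, SE 0.07, edgeR adjusted p = 9.50e-07). Its relative DLX3 had 107 counts over the BMI1 and 2 over the GFP libraries, a ratio of summed levels of 60.7 with a 95% exact interval of 16.4 to 508 that covers counting error only (edgeR adjusted p = 2.33e-06). MSX1, a neural crest homeobox gene, stood at 12.3 ± 1.57 CPM in BMI1 and 10.8 ± 1.12 CPM in GFP libraries (SD, n = 3 each) and did not pass (edgeR adjusted p = 0.218).

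**Figure D4:**
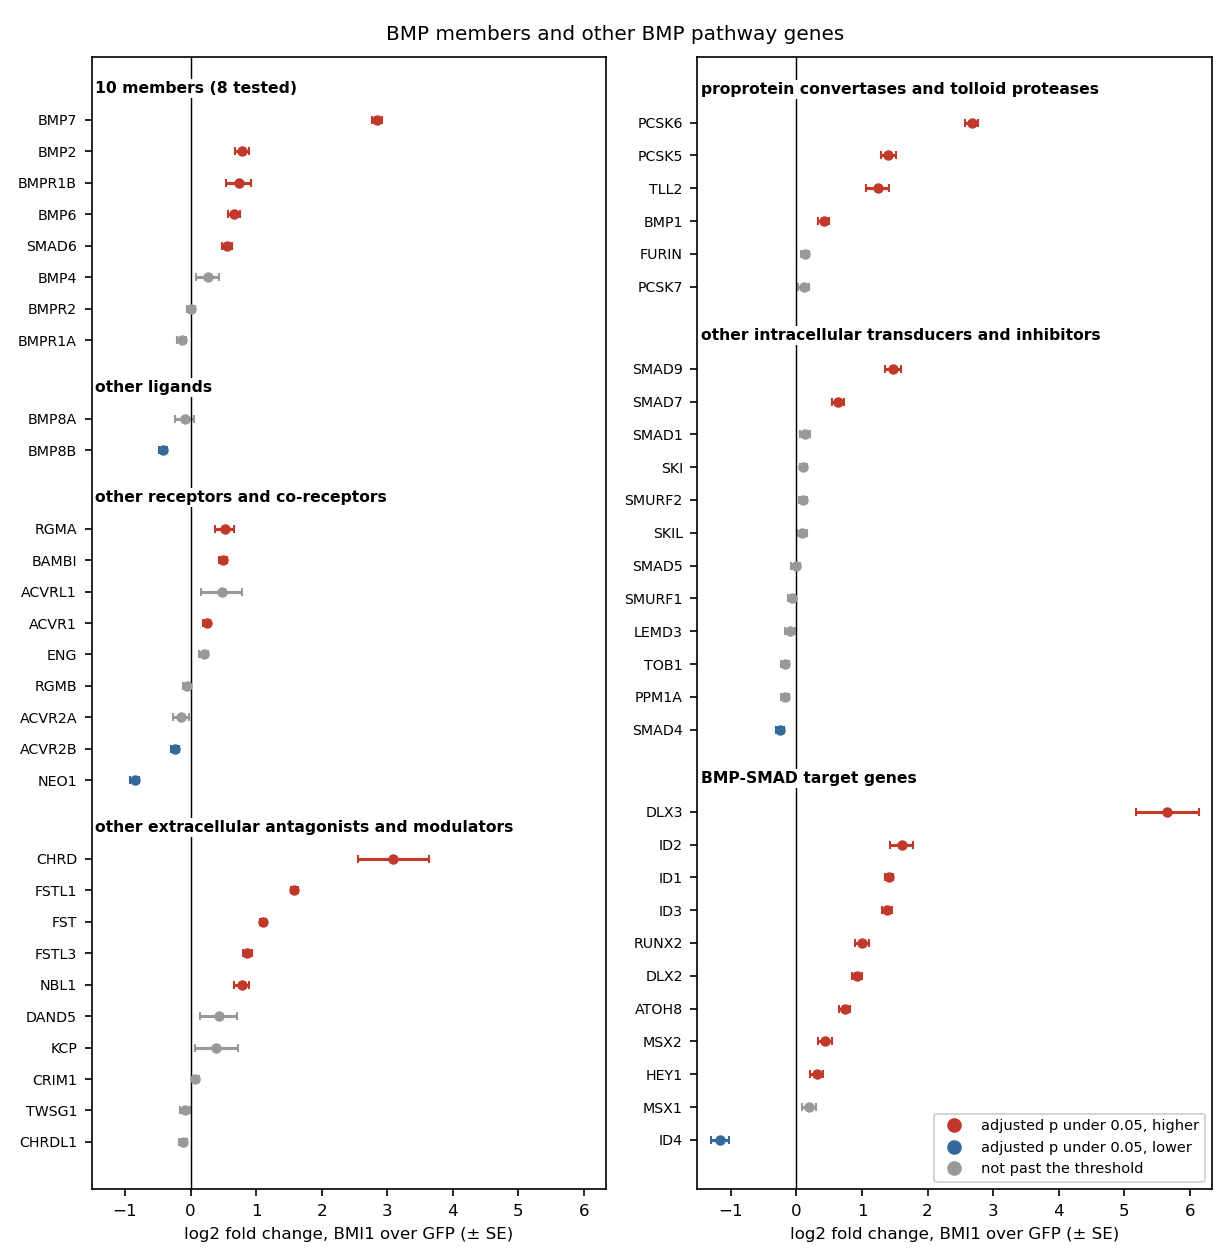
Log2 fold change of BMI1 over GFP (horizontal axis, bars ± SE) for the 8 tested BMP family genes and 50 other pathway genes grouped by role, in red where higher and blue where lower at an adjusted p under 0.05, and grey otherwise. Red points make up 4 of 6 processing enzymes and 9 of 11 target genes, and grey points 9 of 12 intracellular transducers and inhibitors. Over all tested genes 17.1% were higher and 9.32% lower.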

How the data were processed

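Gene-level estimated counts (expected counts, 2 decimals, not normalized), made by the authors with RSEM, were deposited for 3 BMI1 and 3 GFP libraries. The tools listed in the submitters' processing notes are RSEM 1.2.12 and Bowtie 1.0.1, with the build hg19 and without settings. Libraries were grouped by title. Counts were rounded, filtered with filterByExpr, which kept 15079 genes, scaled by TMM and tested with edgeR 4.0.16 (R 4.3.3, quasi-likelihood test, Benjamini-Hochberg over all tested genes, threshold 0.05). Log2 fold changes are BMI1 over GFP, and the SE is the absolute log2 fold change divided by the root of F. No 2 libraries of a group agreed within sampling noise (mean chi-square per gene 2.25 to 11.8). Alternatives were DESeq2 size factors, upper-quartile scaling, the DESeq2 1.42.0 Wald test, limma-voom (limma 3.58.1), 2 other filters, each library left out, a replicate block, and GC correction by lowess on GENCODE 29 transcripts, for 95.1% of tested genes. The 10 members and all lists were chosen with earlier results of these data known. Named are the 10 members, BMI1, and in each list up to 4 genes with the smallest adjusted p that passed and up to 2 most abundant that did not, except where stated. Figures used matplotlib 3.10.9.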

Additional observations from a re-analysis of the deposited data

How the results depend on the processing

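The 5 members counted as higher were 4 to 5 on leaving out a library and 5 under each other alternative, and the 0 counted as lower became 1, BMPR1A, without GFP replicate 1. Leaving out a library gave 711 to 2451 lowered genes over the table and 3 to 8 over the pathway lists, in place of 1405 and 5, and GC correction gave 2411 over the table, where the cause was not tested. SMAD5 was -0.01 as reported and reversed to 0.10 after GC correction, where it passed. With the median transcript length BMP7 held 71.8% of the ligand sum in BMI1 and 35.2% in GFP libraries, and BMPR1A held 60.1% of the receptor sum in BMI1 and 64.8% in GFP libraries, because the lengths of these genes change by different factors. Same-numbered libraries of both groups correlated in their deviations at 0.07, 0.09 and -0.06. BMI1 replicate 1 correlated best with GFP replicate 1, at 0.07, and BMI1 replicate 2 with GFP replicate 3, at 0.14. BMI1 replicate 3 correlated best with GFP replicate 1, at 0.12. Deviations within a group of 3 libraries are tied to each other, so these values cannot decide whether libraries were paired. With the replicate block 2580 genes were higher and 1408 lower, in place of 2581 and 1405. Low counts limit NOG, GREM1, BMPR1B and BMP4.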

Other observations

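Many BMP family genes were at or near 0 in both groups. BMP10, BMP15, GDF2 and GDF5, ligands known from heart, ovary, endothelium and joints, had 0 counts in all 6 libraries. BMP3, a ligand that opposes the others in bone, had 9 counts over the BMI1 and 16 over the GFP libraries, and BMP5 had 1 over the BMI1 and 3 over the GFP libraries. Among antagonists and modulators, BMPER had 8 over the BMI1 and 5 over the GFP libraries. HAMP, the hepcidin gene and a target of BMP6 in liver, had 0 counts in each library. These genes were named after their values were seen, and none was tested.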
